A study of Torulaspora delbrueckii with 9 samples.

Results

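The genes described here are the cytosolic ribosomal protein genes of the budding yeast Torulaspora delbrueckii, taken by name from the gene table of assembly ASM24337v1. A gene was included if its symbol was RPL or RPS and a number, or RPP0, RPP1 or RPP2, each with an optional A or B. The rule found 63 of 4970 protein-coding genes: 32 RPL genes for the large ribosomal subunit, 25 RPS genes for the small subunit, and 6 RPP genes. RPP0, RPP1A, RPP1B, RPP2A and RPP2B carry the names of the ribosomal stalk proteins. RPP1 met the rule by its letters, but in Saccharomyces cerevisiae that name belongs to a subunit of RNase P, an RNA-processing enzyme. RPP1 had no peak in any list, so that leaving it out changed no count of genes with a peak. Ribosomal protein genes that the table lists under a locus name only were not included.

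Chromatin immunoprecipitation followed by sequencing (ChIP-seq) had been carried out on 3 subunits of the origin recognition complex (ORC). The Orc1 libraries came from strains LRY3204 and LRY3211 with a MYC tag on Orc1, the Orc4 libraries from strains LRY3138 and LRY3139 with a V5 tag on Orc4, and the Orc2 libraries from strains LRY3142 and LRY3143 with a V5 tag on Orc2. The controls were 2 genomic inputs and 1 mock immunoprecipitate of the untagged strain JRY10156. All cultures were grown in YPD, a rich glucose medium, at 30 °C, and were fixed with 1% formaldehyde for 1 hour. The 2 libraries of a subunit are technical replicates by the series' design text, although their strain numbers differ, and p-values below measure only how far these libraries vary, possibly for technical reasons. Orc1 peaks were called against input and Orc4 and Orc2 peaks against the same mock, so subunit, tag, antibody and control cannot be told apart between Orc1 and the others. The peak names of all 6 lists give the control the number 3135, where the labels name JRY10156, and the sources used here do not settle which strain it was. The words SIR and Kos3V5 stand in the peak names of the Orc1 lists without an explanation in the labels.

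Ribosomal protein genes are among the most highly transcribed genes of a growing yeast cell, and they are regulated together. In Saccharomyces cerevisiae most of their promoters are bound by the general regulatory factor Rap1 with Fhl1 and its partner Ifh1, and Sfp1 links them to nutrient signals. ORC is known for marking replication origins, which in budding yeasts lie mostly between genes.

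The 6 deposited lists held 263 and 300 peaks for Orc1, 408 and 248 for Orc4, and 339 and 342 for Orc2. The depth of the libraries is unknown, because the lists hold no read counts. A fold enrichment is the authors' value at a peak's summit, relative to the control of that list. Its median over a list was 6.50 and 6.23 for Orc1, 3.84 and 10.8 for Orc4, and 7.20 and 6.64 for Orc2. Orc4 library 1 therefore had the longest list and the lowest median of the 6. The ribosomal protein gene nearest to a chromosome end, RPL10, lay 44.0 kb from it.

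Peaks of 2 kinds were found at the ribosomal protein genes. A small set of genes lay beside strong, wide peaks that all 3 subunits shared, and a larger set carried weak, narrow peaks that came mainly from Orc4 library 1 and Orc2 library 2. A peak was counted with a gene if its edge lay within 1000 bp of it. In Orc1 libraries 1 and 2, 6 and 7 of the 63 genes had a peak (9.52% and 11.1%), against 10.5% and 11.4% of all protein-coding genes. In Orc4 libraries 1 and 2 the numbers were 33 and 7 (52.4% and 11.1%), against 16.4% and 10.6%. In Orc2 libraries 1 and 2 they were 11 and 17 (17.5% and 27.0%), against 13.0% and 13.6%. The share at ribosomal protein genes was thus near that of all genes in both Orc1 lists and in Orc4 library 2, and it exceeded it in both Orc2 lists and, by the widest margin, in Orc4 library 1. Among peaks with a −log10 q of at least 10, the share was 20.6% in Orc4 library 1, against 11.3% of all protein-coding genes. In Orc2 libraries 1 and 2 it was then 9.52% and 11.1%, against 9.82% and 9.58%, so that the Orc2 excess rested on peaks of lower −log10 q.

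Over the 6 lists, 36 genes had a peak in at least 1 list (57.1%, against 20.3% of all protein-coding genes), 6 had a peak in all 6 lists (9.52%, against 9.01%), and 27 had none (42.9%, against 79.7%). Without Orc4 library 1, 18 genes had a peak in any list (28.6%, against 17.6%). Both lists of a subunit had a peak at 6 genes for Orc1 (9.52%, against 10.2%), at 7 for Orc4 (11.1%, against 10.3%) and at 10 for Orc2 (15.9%, against 11.3%). Ribosomal protein genes are short, with a median length of 598 bp against 1219.5 bp for all protein-coding genes, so less sequence was searched around each of them.

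**Figure D1:**
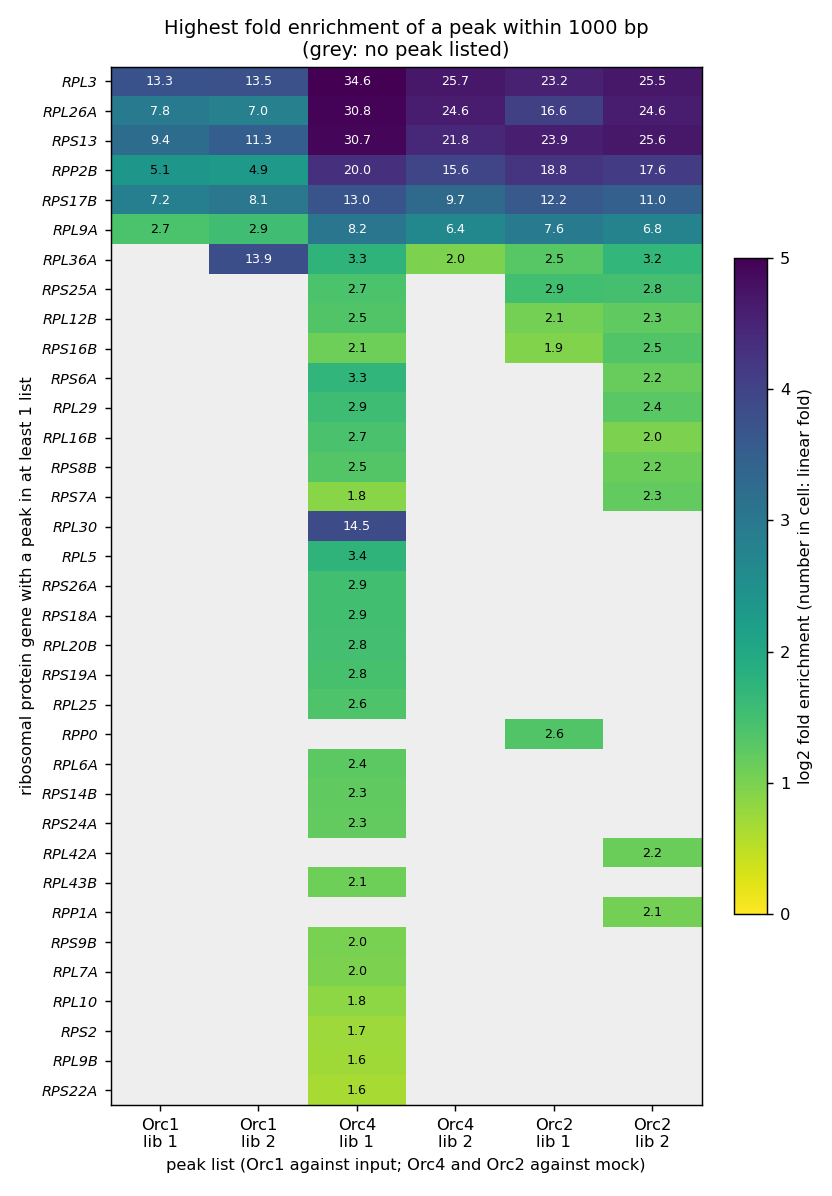
Highest fold enrichment of a peak within 1000 bp of the ribosomal protein genes reported by name that had a peak in at least 1 list (rows), in each of the 6 lists (columns). Colour gives log2 fold enrichment and the number gives the linear value. Grey means that no peak was listed. The top 6 genes are filled in all columns, and most of the rows below them are filled in Orc4 library 1 alone.

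The difference between subunits did not exceed the spread between libraries. Orc1 lists had a peak at 6.5 ± 0.707 genes (SD, n = 2), against 17 ± 11.4 in the Orc4 and Orc2 lists (SD, n = 4), a difference of -10.5 genes (two-sided exact permutation p = 0.267; the 15 splits allow no p below 0.0667). With the share of all protein-coding genes of each list subtracted, the ribosomal protein genes stood at -0.63 percentage points on average in the Orc1 lists and at 13.6 points in the Orc4 and Orc2 lists, a difference of -14.2 points (exact permutation p = 0.2, two-sided). Orc4 lists averaged 20 ± 18.4 genes and Orc2 lists 14 ± 4.24 (SD, n = 2 each). That difference of 6 genes had a two-sided exact permutation p of 1, and the 6 splits allow no p below 0.333. It became -7 genes without Orc4 library 1, and 1 gene with equal numbers of peaks per list. The difference between Orc1 and the other subunits was -2 genes among peaks with a −log10 q of at least 10 and -3 genes with equal numbers of peaks. The gap between the 2 Orc4 lists, 33 against 7 genes, was wider than the gap between any pair of subunit means.

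The strong, wide peaks are described first, by the role of the gene. RPL3 encodes a large-subunit protein near the catalytic centre of the ribosome. The peak beside it, at 465937 to 467081 on chromosome 2 in Orc1 library 1, had fold enrichments of 13.3 and 13.5 in the Orc1 lists, 34.6 and 25.7 in the Orc4 lists, and 23.2 and 25.5 in the Orc2 lists. Its summit lay between CYT1 and YNG1 in each list, 745 to 857 bp from RPL3. YNG1 thus lay between the summit and RPL3.

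RPL26A encodes a large-subunit protein at the peptide exit tunnel. Of the 6 genes it had the summit nearest to it in Orc4 library 1, 79 bp away between TDEL0D02730 and RPL26A. The peak had 7.78 and 7.04 fold in the Orc1 lists, 30.8 and 24.6 in the Orc4 lists, and 16.6 and 24.6 in the Orc2 lists. It was also the widest of the ribosomal protein peaks in Orc4 library 1, at 2019 bp (516954 to 518972 on chromosome 4), and it overlapped the gene in every list. A tRNA gene lies under 1000 bp from it, and reads of near-identical tRNA gene copies can be assigned to any of them. Orc1 values here were relative to input and the others to the mock, so the levels of Orc1 and of the other subunits are not compared.

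RPL9A, the third large-subunit gene, had the weakest of these peaks, with 2.67 and 2.91 fold in the Orc1 lists, 8.18 and 6.37 in the Orc4 lists, and 7.57 and 6.76 in the Orc2 lists. The peak spanned 483262 to 483772 on chromosome 7 in Orc1 library 1 and overlapped RPL9A in each list. Its summit fell between NUP84 and RPL9A in 5 lists and inside NUP84 in Orc1 library 2. The related gene RPL9B on chromosome 3 had a single listed peak, in Orc4 library 1, with 1.64 fold (819272 to 819937). Reads of near-identical gene copies can be assigned to either copy, and how alike these copies are was not examined, so peak parts within RPL9A or RPL9B are uncertain.

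Of the small-subunit genes, RPS13 lay beside a peak of 9.41 and 11.3 fold in the Orc1 lists, 30.7 and 21.8 in the Orc4 lists, and 23.9 and 25.6 in the Orc2 lists (761766 to 762941 on chromosome 2 in Orc1 library 1). The summit was 859 to 972 bp from RPS13. It fell between AIM7 and LCB2 in the Orc4 and Orc2 lists and inside LCB2 in both Orc1 lists. LCB2 encodes an enzyme of sphingolipid synthesis. RPS17B lay beside a peak of 7.16 and 8.10 fold for Orc1, 13.0 and 9.67 for Orc4, and 12.2 and 11.0 for Orc2 (758342 to 758768 on chromosome 1 in Orc1 library 1). Its summit was within 32 bp of ECM11 or inside it, 893 to 958 bp from RPS17B.

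The stalk protein gene RPP2B completed the set. Its peak had 5.12 and 4.91 fold in the Orc1 lists, 20.0 and 15.6 in the Orc4 lists, and 18.8 and 17.6 in the Orc2 lists (581822 to 582590 on chromosome 1 in Orc1 library 1). The summit lay between the tRNA genes TDEL0Atrna6D and TDEL0Atrna7D, 1005 to 1101 bp from RPP2B, so that only the edge of the peak came within the window. In these 6 genes the values of the 2 libraries of a subunit lay close together, and RPL26A in the Orc2 lists, with 16.6 and 24.6 fold, had the widest relative gap. Only at RPL26A and RPL9A was the ribosomal protein gene next to the summit in at least 5 lists.

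Peaks just inside and just outside the window touched RPL30 and RPL36A. Beside RPL30, a gene that in Saccharomyces cerevisiae regulates the splicing of its own transcript, the Orc4 library 1 peak of 14.5 fold ended 624 bp away. In the other 5 lists the peak edge lay 1015 to 1231 bp away, with 2.74 and 3.83 fold for Orc1, 9.34 for Orc4 library 2, and 11.7 and 12.2 for Orc2. The summit of the Orc4 library 1 peak lay between AGA2 and NAT2, 1425 bp from RPL30. At RPL36A the strong peak lay within the window in Orc1 library 2 only, 916 bp away with 13.9 fold, and was 1064 bp away in Orc1 library 1 with 8.66 fold.

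The share of ribosomal protein genes beside such shared peaks was close to that of other genes. Counting only peaks that overlapped a peak in all 5 other lists, 6 and 7 genes had one within 1000 bp in the Orc1 lists (9.52% and 11.1%, against 9.34% and 9.94% of all protein-coding genes). In the Orc4 lists there were 7 and 6 (11.1% and 9.52%, against 9.54% and 9.26%), and in the Orc2 lists 6 and 6 (9.52% in each, against 9.22% and 9.24%).

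Peaks missing from at least 1 other list gave a different picture. Orc4 library 1 had one within 1000 bp of 28 genes (44.4%, against 8.51% of all protein-coding genes), and Orc4 library 2 of 3 genes (4.76%, against 1.77%). In Orc2 libraries 1 and 2 there were 7 and 12 genes (11.1% and 19.0%, against 4.99% and 5.47%). In Orc1 libraries 1 and 2 there were 0 and 1 (0% and 1.59%, against 1.57% and 2.03%). Orc4 library 1 and Orc2 library 2 both had such a peak at 10 genes (15.9%, against 4.12%). At 18 genes Orc4 library 1 was the only list with a peak of any kind within 1000 bp (28.6%, against 2.78%). They include RPL30 and RPS2, whose peaks overlapped peaks of other lists with edges just outside the window.

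**Figure D2:**
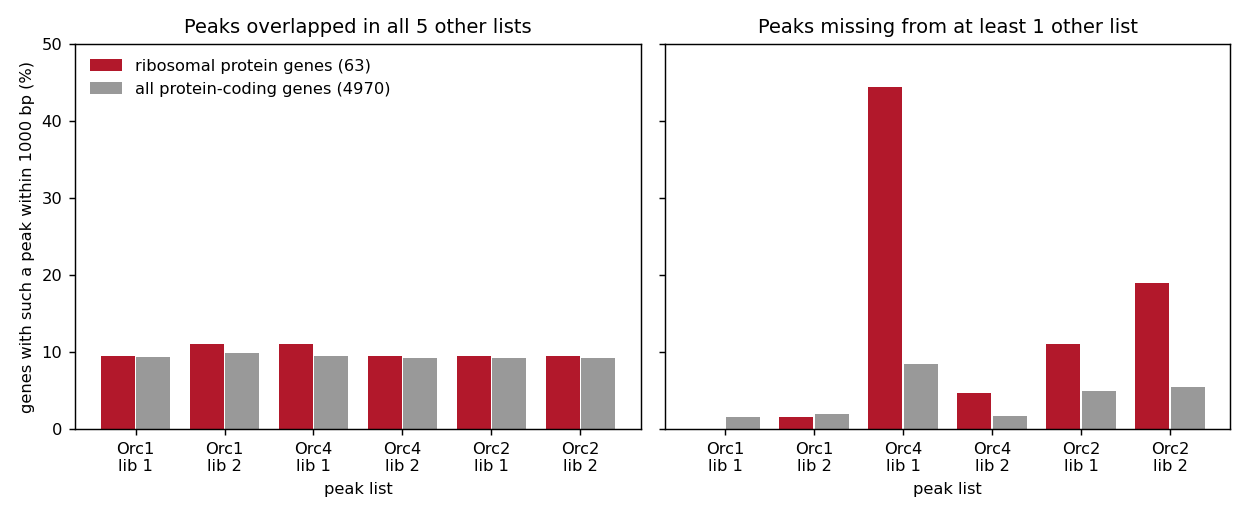
Share of the 63 ribosomal protein genes (red) and of all 4970 protein-coding genes (grey) with a peak within 1000 bp, by list. Left, peaks that overlap a peak in all 5 other lists. Right, peaks missing from at least 1 other list. The red and grey bars are close to each other on the left, and on the right the red bar of Orc4 library 1 reaches 44.4% against 8.51%.

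Seen from the peaks, 31 of the 204 peaks of this weaker kind in Orc4 library 1 lay within 1000 bp of a ribosomal protein gene (15.2%), as did 14 of 131 in Orc2 library 2 (10.7%), 8 of 126 in Orc2 library 1 (6.35%) and 3 of 40 in Orc4 library 2 (7.50%). In Orc1 libraries 1 and 2 it was 0 of 60 and 1 of 102 (0.980%). The windows around the 63 genes made up 1.70% of the genome. A peak counted even if only its edge reached a window, so 1.70% is a low baseline. Of the peaks overlapped in all other lists, 3.43% and 2.88% lay near these genes in Orc4 libraries 1 and 2. The shares were 2.82% and 2.84% in Orc2 libraries 1 and 2, and 2.96% and 3.54% in Orc1 libraries 1 and 2. In Orc4 library 1, 83 peaks overlapped no peak of another list, and 19 of these lay near ribosomal protein genes (22.9%). In Orc2 libraries 1 and 2 these numbers were 1 of 23 (4.35%) and 3 of 24 (12.5%). They were 0 of 5 in Orc4 library 2, and 0 of 5 and 0 of 62 in Orc1 libraries 1 and 2.

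Peaks are called weaker here if they were missing from at least 1 other list. Low peaks are missed more easily, so their contrast with the shared peaks is partly set by this definition. Near the ribosomal protein genes the weaker peaks were low and narrow. Over all lists there were 57 of them near 31 genes, with fold enrichments from 1.58 to 3.36 and widths from 165 to 784 bp. In Orc4 library 1 their median fold enrichment was 2.35 and their median width 239 bp, against 2.18 fold and 297 bp for the 173 other peaks of this kind in the same list. In Orc2 library 2 the medians were 2.28 fold and 258 bp, against 2.12 fold and 231 bp. The 38 peaks found in all 6 lists had fold enrichments from 2.67 to 34.6 and widths from 427 to 2019 bp. No weaker peak in the other lists reached the values of the 3 strongest of Orc4 library 1, at RPL5, RPL36A and RPS6A.

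**Figure D3:**
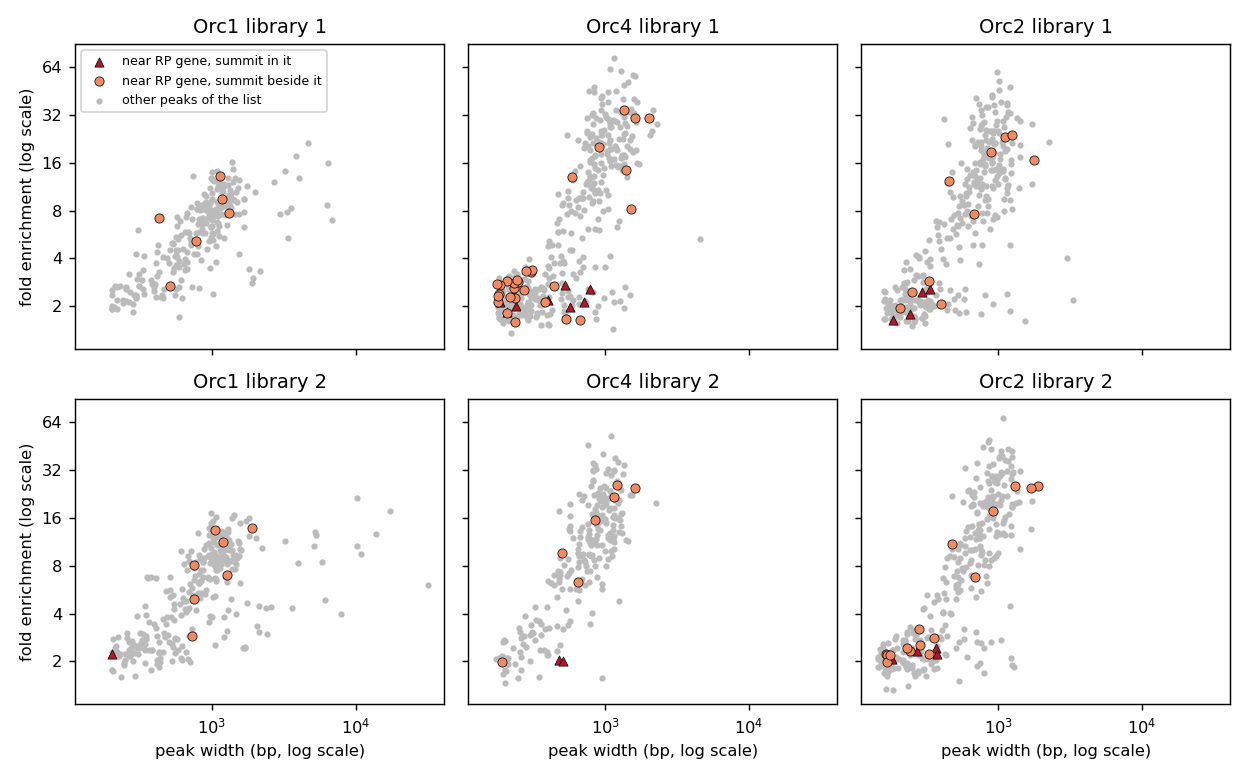
Fold enrichment against width of each peak in the 6 lists, both on log scales. Triangles are peaks near a ribosomal protein (RP) gene with the summit in it, circles are such peaks with the summit beside it, and small grey points are the other peaks of the list. Peaks near ribosomal protein genes form a group at or under 3.36 fold in Orc4 library 1 and in both Orc2 lists, apart from those at or above 6.76 fold.

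The weaker peaks are given next, for large-subunit genes first. RPL36A was the only gene with such a peak in both Orc4 lists and both Orc2 lists and a summit beside the gene. The values were 3.34 and 1.98 fold for Orc4 and 2.45 and 3.21 fold for Orc2, at 1218638 to 1218920 on chromosome 1 in Orc4 library 1. The summits of the 4 lists lay 256 to 338 bp from RPL36A, between it and MRPL24. At RPL12B, whose protein sits at the base of the stalk, Orc4 library 1 had peaks of 2.14 fold beside the gene and 2.55 fold in it, Orc2 library 2 had peaks of 2.24 and 2.33 fold at the same places, and Orc2 library 1 had 2.07 fold beside it. Orc4 library 2 and both Orc1 lists had none there.

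RPL3 carried weak peaks inside the gene in addition to the strong one beside it. Orc4 lists had 2.13 and 2.05 fold there, and Orc2 library 1 had 1.79 and 1.64 fold in 2 pieces. The strong peak reached the edge of RPL3 in the Orc4 and Orc2 lists, and in Orc2 library 2 it was 1892 bp wide and covered part of the stretch that held the weak peaks in the other lists. RPL5, which encodes a large-subunit protein that joins the ribosome together with an rRNA, had the highest weaker peak, 3.36 fold in Orc4 library 1, with the summit 231 bp away on the side of RCN2. No other list had a peak at RPL5.

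Among small-subunit genes, RPS13 was the only one of the 63 with a weaker peak in both Orc4 lists, both Orc2 lists and an Orc1 list. The summit lay inside RPS13, with 2.23 fold in Orc1 library 2 (relative to input), 2.71 and 2.02 fold in the Orc4 lists, and 2.47 and 2.44 fold in the Orc2 lists (760459 to 760981 on chromosome 2 in Orc4 library 1). The tRNA gene TDEL0Btrna14V lay within 1000 bp of these peaks. RPS25A had 2.68 fold in Orc4 library 1, 2.87 fold in Orc2 library 1 and 2.79 fold in Orc2 library 2 (550154 to 550595 on chromosome 4 in Orc4 library 1). The summit there lay in the tRNA gene TDEL0Dtrna1E in 2 of these lists and 131 bp from it in Orc2 library 2. A further peak, inside RPS25A, was listed in Orc4 library 1 only, with 2.35 fold.

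RPS16B had 2.14 fold in Orc4 library 1 and 2.24 fold in Orc2 library 2 inside the gene, and 1.94 and 2.55 fold in the Orc2 lists beside it, on the side of TDEL0G03170. RPS6A, whose protein is phosphorylated in response to nutrient signals, had 3.28 fold in Orc4 library 1 and 2.24 fold in Orc2 library 2, with summits 321 and 224 bp from the gene. RPS8B had 2.54 fold in Orc4 library 1 and 2.18 fold in Orc2 library 2, with summits 493 and 488 bp away. RPL29 had 2.92 and 2.42 fold in the same lists, with summits 412 and 407 bp away. In the last 2 genes the summits of the 2 lists thus lay 5 bp apart, while those inside RPS16B lay 324 bp apart.

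RPL16B and RPS7A also had a weaker peak in both Orc4 library 1 and Orc2 library 2. RPL16B had 2.71 fold in Orc4 library 1 and 1.99 fold in Orc2 library 2, with summits 414 and 212 bp away. RPS7A had 1.84 and 2.31 fold, inside the gene in Orc4 library 1 and beside it in Orc2 library 2. The places did not coincide at RPS7A, where the peaks did not overlap. Over the ribosomal protein genes, 10 of the 14 weaker peaks of Orc2 library 2 overlapped a peak of Orc4 library 1. Their summits lay 3 to 324 bp apart (median 74.5 bp). For Orc2 library 1 it was 6 of 8 (34 to 448 bp, median 149.5 bp), and for Orc4 library 2 it was 3 of 3 (37 to 95 bp, median 44 bp). This overlap was not counted for weaker peaks elsewhere. Of all 131 weaker peaks of Orc2 library 2, only 24 overlapped no peak of any other list, 3 of them near ribosomal protein genes. These Orc4 and Orc2 lists have the mock control in common, and its part in their overlap was not tested. With lists cut to equal numbers of peaks, the count of 33 genes in Orc4 library 1 became 13. The part of its low median fold enrichment in that count was not tested.

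The remaining genes with weaker peaks had them within 1000 bp in a single list. In Orc4 library 1 alone these were, besides RPL5 and RPL9B, RPS26A (2.87 and 2.19 fold), RPS18A (2.85), RPL20B (2.80), RPL25 (2.61), RPL6A (2.38), RPS14B (2.32 and 1.58), RPS24A (2.29), RPL43B (2.14), RPS9B (2.02), RPL7A (1.97), RPL10 (1.81), RPS2 (1.66), RPS22A and RPS19A (2.76), among others. RPS22A and RPS14B share a peak, the one of 1.58 fold inside RPS14B. The RPS2 peak overlapped one of 1.83 fold in Orc2 library 2, whose edge lay 1067 bp from the gene. RPL42A (2.18 fold) and the stalk gene RPP1A (2.07 fold) had a peak in Orc2 library 2 alone, and RPP0, which encodes the scaffold of the stalk, had 2.57 fold in Orc2 library 1 alone.

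The weaker peaks lay both inside and beside these genes. In Orc4 library 1, 11 of the 31 had their summit inside a ribosomal protein gene, 2 inside another gene (OM14 and a tRNA gene) and 18 between genes. The 18 summits between genes lay 7 to 518 bp from the ribosomal protein gene, at a median of 321.5 bp and with quartiles of 243.25 and 367.25 bp. A ribosomal protein gene flanked the summit in 18 of 18 cases, but it was the nearer of the 2 flanking genes in 6 of them only. For the 173 other peaks of this kind in the list, 91 summits (52.6%) lay inside a gene. The gene table holds no strand, so whether a summit lay before the start or after the end of a gene was not determined.

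**Figure D4:**
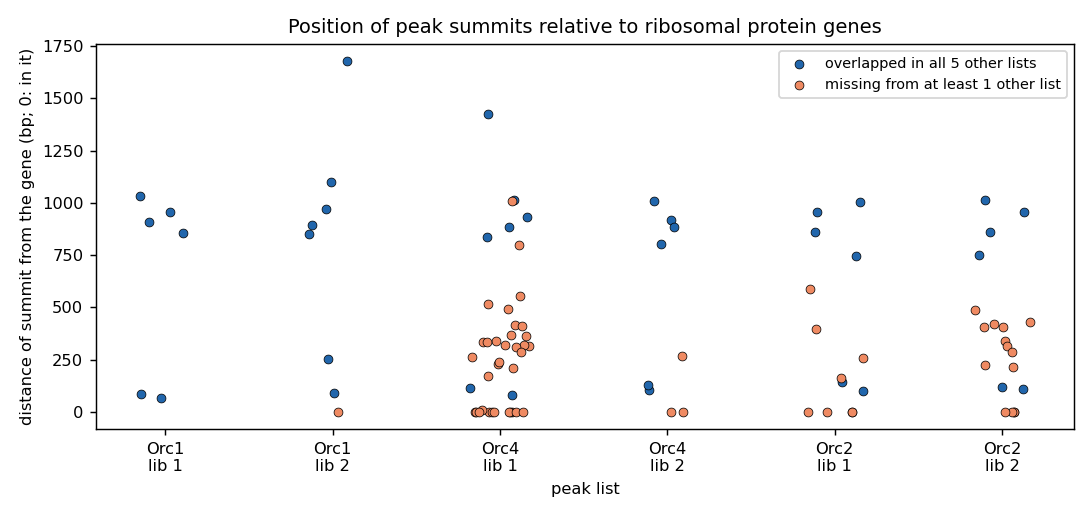
Distance in bp from each peak summit to the ribosomal protein gene it was counted with, by list, where 0 means that the summit lay in the gene. A peak near 2 such genes appears for each of them. Peaks missing from at least 1 other list (orange) lie mostly between 150 and 550 bp or at 0 in Orc4 library 1, and peaks overlapped in all 5 other lists (blue) lie at or below 253 bp or at or above 745 bp.

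The gaps that held these 18 summits were not longer than those of other weaker peaks of Orc4 library 1. Their median length was 551.5 bp, against 761 bp for the gaps of the 80 other summits between genes. The distance to the nearer gene had medians of 147.5 and 161 bp in these sets. A tRNA gene stood under 1000 bp from 3 of the 31 peaks, 1 at RPS13 and 2 at RPS25A.

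Summits inside a ribosomal protein gene were listed for 0 and 1 genes in the Orc1 lists (against 1.33% and 1.53% of all protein-coding genes), for 11 and 2 genes in the Orc4 lists (17.5% and 3.17%, against 1.89% and 0.825%), and for 3 and 4 genes in the Orc2 lists (4.76% and 6.35%, against 1.61% and 1.27%). The mean was 0.5 ± 0.707 genes for Orc1 (SD, n = 2) and 5 ± 4.08 for Orc4 and Orc2 (SD, n = 4), and the difference of -4.5 genes did not exceed the spread between libraries (two-sided exact permutation p = 0.267).

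By role, 17 of 32 large-subunit genes and 15 of 25 small-subunit genes had a peak in Orc4 library 1, and 1 of the 6 RPP genes, RPP2B, did so too, beside 16.4% of all protein-coding genes. In Orc2 library 2 the numbers were 8, 7 and 2, beside 13.6% of all protein-coding genes. Differences between the roles were not tested. No peak within 1000 bp in any list was found for 14 large-subunit genes: RPL1B, RPL4A, RPL11A, RPL14A, RPL15B, RPL21A, RPL23A, RPL28, RPL31B, RPL32, RPL37A, RPL38, RPL39 and RPL40A. The same held for 10 small-subunit genes, among them RPS1B, RPS3, RPS10A, RPS12, RPS15, RPS20, RPS22B, RPS23B and RPS31. It also held for RPP1, RPP1B and RPP2A. The nearest peak edge of any list lay 1089 to 27290 bp from these 27 genes, with a median of 7065 bp.

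Peaks at other lists of genes were counted in the same way. Of 56 mitochondrial ribosomal protein genes, 5 to 7 had a peak within 1000 bp in each list (8.93% to 12.5%). Over all protein-coding genes the shares were 10.5% to 16.4%. None of the 56 had a summit inside, which is near the 0.825% to 1.89% of all protein-coding genes. Of the 11 glycolysis genes found in the table, 8 had a peak in Orc4 library 1 (72.7%, against 16.4% of all protein-coding genes). The numbers were 8 in Orc2 library 1 (72.7%, against 13.0%) and 7 in Orc2 library 2 (63.6%, against 13.6%). No glycolysis gene had a peak in the Orc1 lists (against 10.5% and 11.4%) or Orc4 library 2 (against 10.6%). All of these peaks had their summit inside the gene, with 1.67 to 2.64 fold in Orc4 library 1, 1.75 to 2.57 fold in Orc2 library 1 and 1.87 to 3.09 fold in Orc2 library 2. Orc2 library 1 thus listed 8 of 11 glycolysis genes against 11 of 63 ribosomal protein genes, and Orc4 library 1 listed 8 of 11 against 33 of 63. Of 14 translation factor genes none had a peak in an Orc4 or Orc2 list (against 10.6% to 16.4% of all protein-coding genes). With 14 genes, none cannot be told from these shares. SUI1 had one in both Orc1 lists (7.14% in each, against 10.5% and 11.4%).

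**Figure D5:**
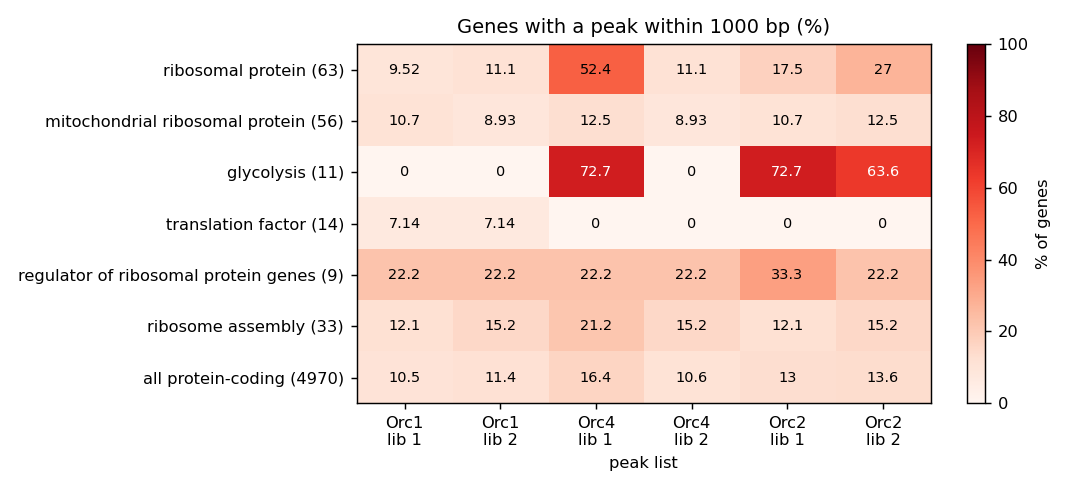
Share of genes with a peak within 1000 bp, in percent, for ribosomal protein genes, 5 lists of other genes and all protein-coding genes (rows, with the number of genes), in each peak list (columns). Ribosomal protein genes reach 52.4% in Orc4 library 1, while glycolysis genes reach 72.7% there and in Orc2 library 1, and 0% in the Orc1 lists and Orc4 library 2.

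Of 9 genes for regulators of ribosomal protein genes in the table, ABF1 and SFP1 had a strong peak in all 6 lists. That was 22.2% with a peak in all 6 lists, against 9.01% of all protein-coding genes. At SFP1 the highest peak had 12.6 fold in both Orc1 lists, 60.9 and 40.2 in the Orc4 lists, and 35.9 and 43.6 in the Orc2 lists. At ABF1 it had 12.2 and 16.7 in the Orc1 lists, 34.5 and 24.6 in the Orc4 lists, and 33.3 and 35.2 in the Orc2 lists. The summits of these strong peaks lay outside SFP1 and ABF1 in every list. RAP1 had a low but wide peak in Orc2 library 1 only, of 2.18 fold and 3290 bp, with its summit inside the gene. FHL1, IFH1, HMO1, SCH9, TBF1 and TOR1 had none. Of 33 ribosome assembly genes, 4 and 5 had a peak in the Orc1 lists (12.1% and 15.2%, against 10.5% and 11.4% of all protein-coding genes). In the Orc4 lists there were 7 and 5 (21.2% and 15.2%, against 16.4% and 10.6%). In the Orc2 lists there were 4 and 5 (12.1% and 15.2%, against 13.0% and 13.6%). None of the 33 had a summit inside the gene, which is near the 0.825% to 1.89% of all protein-coding genes.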

How the data were processed

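ChIP-seq of Orc1, Orc4 and Orc2 was represented by 6 peak lists, 1 per immunoprecipitate, deposited by the authors in narrowPeak format. Per the submitters' processing notes, the tools were MACS2 2.2.7.1, Bowtie2 2.3.4.1 and cutadapt 2.10, and neither settings nor genome build are given in the sources used here. Both the deposited fold enrichment (a ratio of immunoprecipitate to control) and the deposited −log10 q were used as given by the authors, and the deposited −log10 p and score columns were not analysed. The word subsample in the peak names has no explanation in the labels.

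Sequence names were matched to the chromosomes of ASM24337v1 by number. The share of summits outside genes was highest on the chromosome of the same number for 8 of 8 sequences. Positions are 1-based. Gene bounds came from the RefSeq table of ASM24337v1 with 5174 genes. A planned division of summits before the start or after the end of a gene was not made, as the table has no strand.

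Gene counts were compared between lists by exact two-sided permutation of libraries and otherwise described beside the same count over 4970 protein-coding genes. Overlap of peaks means at least 1 bp. Every gene with a peak in both lists of a subunit was to be named with its values. The counting was tested on simulated peaks. Alternatives were other windows, distance from the summit, −log10 q of at least 10, equal numbers of peaks per list, leaving out each library, a replicate block and leaving out RPP1. Genes, lists and tests were chosen with earlier results of these data known. Python 3.11.15, pandas 2.3.3 and numpy 2.4.6 were used. Some genes enter the counts but are not reported by name here.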

Additional observations from a re-analysis of the deposited data

How the results depend on the processing

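Across the alternatives, the exact permutation p ranged from 0.2 to 0.667 for the Orc1 difference in genes with a peak, from 0.2 to 0.533 with all genes subtracted, from 0.333 to 1 for Orc4 against Orc2, and from 0.133 to 1 for summits in the gene. Leaving out a library gave -13.8 to -5.17 genes, -18.6 to -6.73 points, -7 to 19 genes and -5.5 to -2.5 genes for these differences. At −log10 q of at least 10 they were -2 genes, -3.00 points, 3 genes and -0.25 genes, and with equal numbers of peaks -3 genes, -4.50 points, 1 gene and -1.5 genes. The reversal, -7 genes, came without Orc4 library 1. Without a library, 6 or 7 genes had a peak in all remaining lists, 18 to 36 in any list and 27 to 45 in none. The 18 and the 45 came without Orc4 library 1, where the 18 genes were 28.6%, against 17.6% of all protein-coding genes. The other shares over all protein-coding genes were not computed with a library left out.

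With a window of 2000 bp, 11 and 11 genes had a peak in the Orc1 lists (17.5% in each, against 14.9% and 15.9% of all protein-coding genes) and 10 in all 6 lists. With overlap of peak and gene, the counts were 2 and 3 for Orc1 (3.17% and 4.76%, against 5.69% and 6.24%), 15 and 4 for Orc4 (23.8% and 6.35%, against 7.53% and 5.23%), and 5 and 7 for Orc2 (7.94% and 11.1%, against 6.30% and 6.06%), with 2 in all 6 lists, 17 in any list and 46 in none. At −log10 q of at least 10 they were 13 for Orc4 library 1 (20.6%, against 11.3% of all protein-coding genes), 6 and 7 for Orc2 (9.52% and 11.1%, against 9.82% and 9.58%), 13 in any list and 50 in none. The mean over lists of the share of summits in the gene was then 1.28%, of the median width 950.5 bp and of the median fold enrichment 13.0, against 18.7%, 576 bp and 5.40 over all peaks near the genes. With equal numbers of peaks per list, 13 genes had a peak in Orc4 library 1 (20.6%, against 11.3%), 9 in Orc2 library 2 (14.3%, against 10.5%), 16 in any list and 47 in none, and the median fold enrichment averaged 8.70. The −log10 q limit and the equal numbers drop weaker peaks by construction, while the wider window adds peaks and the overlap rule drops peaks beside genes. For the counts in all 6 lists, in any list and in none, the shares of all protein-coding genes were not computed at these settings. Without read counts in the lists, the depth that limits weak peaks is unknown.

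Same-numbered libraries of different subunits did not deviate together (correlations of -0.078 to 0.0054 over 4970 genes), so that the numbers were not taken to pair them. With libraries permuted within the replicate number as a block, the differences stayed -10.5 genes, -14.2 points, 6 genes and -4.5 genes, with exact permutation p of 0.333, 0.222, 1 and 0.333. Leaving out RPP1, chosen after seeing the data, changed none of the counts of genes with a peak.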
